A study of Rattus norvegicus and Mus musculus with 61 samples.

Results

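The genes described here are the AP-1 transcription factor genes Fos, Fosb, Fosl1, Fosl2, Jun, Junb and Jund together with Atf3, chosen by gene symbol among the annotated probe sets of a mouse and a rat brain injury series. The symbols matched 12 of 12488 mouse probe sets, for all 8 genes, and 14 of 8799 rat probe sets, for 7 genes, since no rat probe set carried the symbol Fosb. After a filter on dim signals, 8 of 8 genes were tested in mouse and 6 in rat. Rat Jund had 1 probe set, with a signal of 24.1 to 183 over 39 arrays, and it did not pass the filter.

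The study followed injured parieto-occipital cortex over time on oligonucleotide arrays, 22 from mouse and 39 from rat. Mouse injury was a moderate controlled cortical impact (6 m/s, 1.5 mm deformation) in isoflurane-anaesthetised male C57BL/6 mice, and each sample pooled 3 disks of 4 mm. Rat injury was fluid percussion, a 2.5 atm pressure pulse to the brain, in male Sprague-Dawley rats under sodium pentobarbital, and each sample was 1 disk of 7 mm from 1 rat. Disks from injured animals held the contusion, and all are bulk tissue with the cell types mixed. Mouse had 3 injury and 2 sham samples at each of 4, 8, 24 and 72 h, and 2 naive samples. In rat, 30 min was covered by 5 injury and 4 sham samples, 4 h by 3 and 4, and each of 8, 24 and 72 h and 21 d by 3 and 2, beside 3 naive samples. Sham animals were anaesthetised and had sham surgery, naive mice and rats are labelled only as naive, and no ages are given in the labels.

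Fos and Jun proteins carry a basic leucine zipper, pair with each other and bind the AP-1 site in DNA. Their genes are immediate early genes, switched on within minutes of synaptic activity, calcium entry, growth factors or stress, through MAP kinases and the factors SRF and CREB. Jun proteins also pair among themselves, while Fos proteins need a partner. Atf3 belongs to the related ATF and CREB group, pairs with Jun proteins and is widely used as a marker of stressed or axotomised neurons.

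Values below are deposited linear signals, whose 2% trimmed mean was close to 800 on every array. Differences are on the log2 scale ± SE from limma, and a gene counts as called where its adjusted p (Benjamini-Hochberg, below 0.05) was reached over all 6355 mouse or 4091 rat genes tested. Array signals have no depth, so the number of arrays limits the precision. Labels do not say that the arrays of a group came from separate surgeries, so the p-values here speak only of differences relative to array-to-array spread, which may be technical. In mouse, injury arrays are numbered 1 to 3 and share a letter at each time (a at 4 h, b at 8 h, c at 24 and 72 h). Both sham arrays of a time instead carry number 1 with different letters (1b and 1c at 4 and 8 h, 1c and 1d at 24 and 72 h). Whether those 2 sham arrays are separate pools of animals is not stated. In rat, 4 arrays stood apart: sham 4 h replicates 4 and 3, injury 30 min replicate 5 and sham 30 min replicate 3 had median correlations of 0.537, 0.662, 0.755 and 0.785 with the other rat arrays. The next lowest were injury 72 h replicate 2 (0.818) and the injury and sham arrays of 24 h (0.821 to 0.843). The number 4 was a setting, and the values show no clear break after it. Rat results for members and gene lists are therefore mostly given with and without these 4 arrays. Rat cell markers and correlations of group means are given over all arrays only. The rat 24 h arrays, injury and sham, had the highest median signals of the rat arrays (398 to 409, against 277 to 298 in naive cortex). Their labels alone carry an f after the time, whose meaning is not given. The 6 neuronal markers tested (Snap25, Syt1, Nefl, Nefm, Gad1, Gad2) summed to 22132 to 40679 in mouse and 6653 to 30504 in rat, so every array held neuronal transcripts.

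In mouse cortex, 6 of the 8 genes rose after impact against time-matched sham at 1 or more times: Fos, Fosb, Fosl1, Jun, Junb and Atf3. At 4 h, 2 of 8 rose, at 8 h 5 of 8, at 24 h 6 of 8 and at 72 h 3 of 8, and none fell. Among all genes tested, 0.677% rose at 4 h, 4.91% at 8 h, 6.2% at 24 h and 9.85% at 72 h. Fosl2 and Jund were not called at any time. Every 4 h difference from sham rests on 2 sham arrays that held pituitary transcripts: of 5 pituitary markers tested, 4 were lower and 1 was higher in injured cortex, and the part of this in the 4 h differences was not tested. In bulk tissue, fewer cells of a type and less RNA per cell cannot be told apart.

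**Figure D1:**
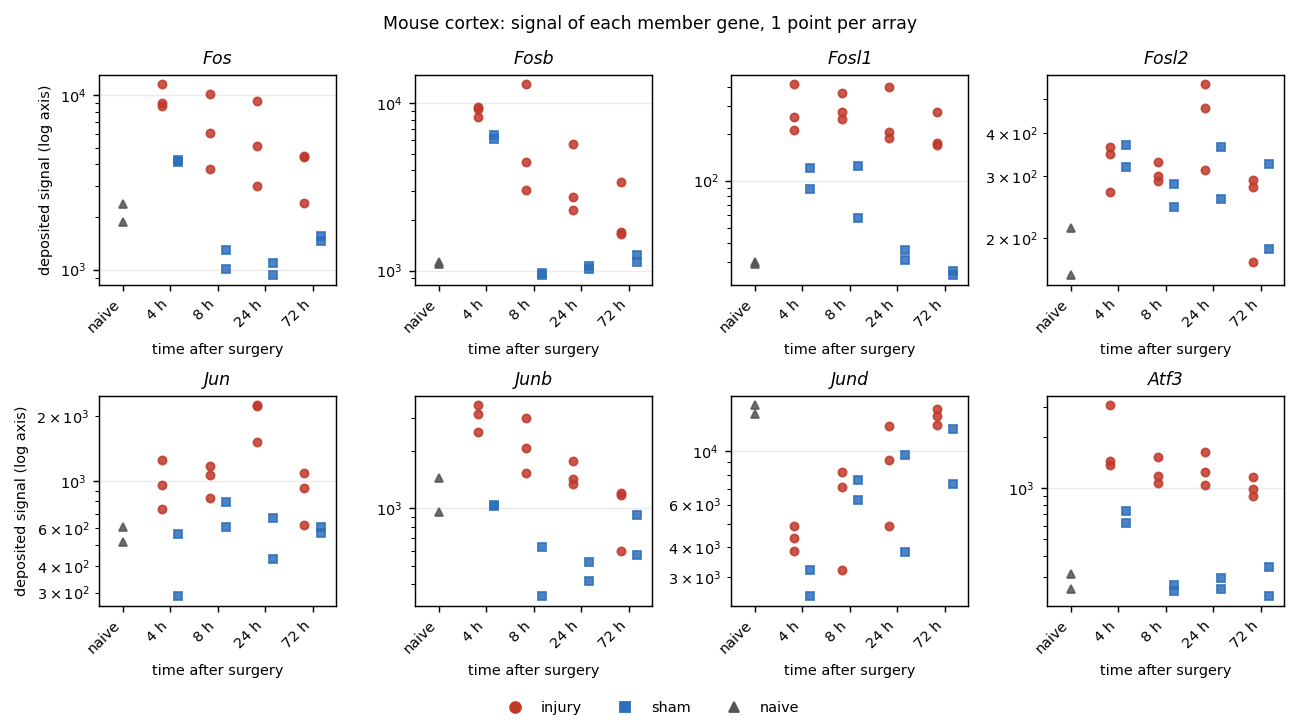
Deposited signal (log axis) of the 8 genes in each mouse array, with naive arrays at the left and injury (circles) beside sham (squares) at each time. At 8 and 24 h every injury array lies above every sham array for Fos, Fosb, Fosl1, Jun, Junb and Atf3, while Jund is high in naive arrays and low in both surgical groups at 4 h.

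Fos encodes the founding Fos protein and is the standard marker of recent neuronal activity. Its mouse signal was 11546, 8941 and 8638 in injured cortex at 4 h, against 4131 and 4232 in sham cortex. At 8 h it was 10121, 3767 and 6095 in injured cortex, against 1301 and 1008 in sham. Injury arrays lay above sham arrays at both times, and the 4 h sham arrays were also above both naive arrays, at 1867 and 2365. At 24 h Fos was 5074, 3006 and 9238 in injured cortex and 928 and 1088 in sham, and at 72 h it was 4482, 4432 and 2413 against 1554 and 1468. Fos rose by 2.42 ± 0.38 at 8 h (adjusted p = 0.000371, limma), 2.37 ± 0.38 at 24 h (adjusted p = 0.000348) and 1.27 ± 0.38 at 72 h (adjusted p = 0.0288). The 4 h difference of 1.20 ± 0.38 was not called (adjusted p = 0.226). The 72 h call ended without injury replicate 1 (1.11, adjusted p = 0.102), injury replicate 2 (1.12, 0.0853), sham 1c (1.31, 0.0669) or sham 1d (1.22, 0.158).

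Fosb, whose truncated splice form, delta FosB, is stable and builds up with repeated stimulation, had the highest single signal of its own series at 8 h. Its signal was 9565, 9279 and 8339 in injured cortex at 4 h, against 6455 and 6126 in sham cortex. At 8 h it was 13031, 3042 and 4450 in injured cortex, against 938 and 970 in sham. Sham arrays at 4 h were thus several times brighter than sham arrays of any later time, which lay between 938 and 1233. Fosb rose by 2.56 ± 0.43 at 8 h (adjusted p = 0.000737, limma) and 1.67 ± 0.43 at 24 h (adjusted p = 0.0166). At 4 h the difference was 0.52 ± 0.43, with a 95% interval of -0.38 to 1.43 (adjusted p = 0.811). At 24 h signals were 2744, 2292 and 5720 in injured cortex and 1060 and 1022 in sham, and this call ended without injury replicate 3 (1.27, adjusted p = 0.0778), sham 1c (1.69, 0.0893) or sham 1d (1.64, 0.121). At 72 h signals of 1710, 3408 and 1649 in injured cortex, against 1129 and 1233 in sham, differed by 0.85 ± 0.43 (adjusted p = 0.215).

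Fosl1 encodes Fra-1, a Fos protein without a transactivation domain of the Fos type. Its signal was 397, 189 and 205 in injured cortex at 24 h, against 31.0 and 36.0 in sham cortex. At 72 h it was 274, 175 and 168 in injured cortex, against 26.3 and 24.7 in sham, close to the floor of 24.1 set on all mouse signals. Injured cortex stayed in one range from 4 to 72 h (168 to 415), and the sham arrays were higher at 4 h (87.9 and 120) and 8 h (57.7 and 123) than in naive cortex (29.9 and 29.3). Fosl1 rose by 1.80 ± 0.44 at 8 h (adjusted p = 0.0152, limma), 2.89 ± 0.44 at 24 h (adjusted p = 0.000243) and 2.98 ± 0.44 at 72 h (adjusted p = 0.000108). At 4 h signals of 415, 254 and 211 in injured cortex differed from sham by 1.45 ± 0.44 (adjusted p = 0.198). Because its sham signals are dim, the size depends on the floor: with the floor at the 25th percentile the 24 h and 72 h rises were 1.65 (adjusted p = 0.00538) and 1.35 (adjusted p = 0.0168). The 8 h call ended without injury replicate 1 (1.64, adjusted p = 0.0601) or sham 1b (1.25, 0.277).

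Fosl2 encodes Fra-2. Its signal in injured cortex was 271 to 363 at 4 h, 292 to 331 at 8 h, 312 to 551 at 24 h and 171 to 293 at 72 h. Sham signals were 319 and 370 at 4 h, 245 and 285 at 8 h, 259 and 364 at 24 h, and 187 and 325 at 72 h. The groups overlapped at 4, 24 and 72 h. Differences lay between -0.08 ± 0.30 at 4 h and 0.50 ± 0.30 at 24 h, and the 24 h interval was -0.14 to 1.13 (adjusted p = 0.351, limma).

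Jun encodes c-Jun, the main target of JNK kinases, and its call came at 24 h alone in mouse. Its signal was 2236, 1520 and 2254 in injured cortex at 24 h, against 669 and 430 in sham cortex. At 4 h it was 1246, 959 and 738 in injured cortex and 288 and 566 in sham. Every injury array was above every sham array at all 4 times, and the brightest injured arrays were those of 24 h. Jun rose by 1.88 ± 0.30 at 24 h (adjusted p = 0.000341, limma). The 4 h difference of 1.25 ± 0.30 missed the threshold (adjusted p = 0.0551), and at 8 and 72 h the differences were 0.55 ± 0.30 (adjusted p = 0.302) and 0.54 ± 0.30 (adjusted p = 0.262).

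Junb encodes a Jun protein that often restrains c-Jun and is induced with Fos. Its signal was 3491, 3126 and 2533 in injured cortex at 4 h, against 1033 and 1039 in sham cortex. At 8 h it was 2973, 1534 and 2085 in injured cortex, against 345 and 626 in sham, and at 24 h it was 1430, 1350 and 1769 against 415 and 524. Sham Junb at 8 and 24 h was below both naive arrays (962 and 1452), while injured Junb was above the higher of them at 4 and 8 h. Junb rose by 1.55 ± 0.32 at 4 h (adjusted p = 0.0216, limma), 2.19 ± 0.32 at 8 h (adjusted p = 0.000188) and 1.69 ± 0.32 at 24 h (adjusted p = 0.00175). At 72 h the groups overlapped (0.38 ± 0.32, adjusted p = 0.502). The dimmer Junb probe set gave 1.72 ± 0.26 at 4 h and 1.35 ± 0.26 at 8 h, both called, but 0.63 ± 0.26 at 24 h (adjusted p = 0.152). The 4 h call ended without injury replicate 1 (1.44, adjusted p = 0.1), injury replicate 2 (1.52, 0.0735), sham 1b (1.55, 0.123) or sham 1c (1.54, 0.246), with no filter (adjusted p = 0.0556) and with the sham arrays averaged (0.171).

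Jund encodes the Jun protein that most resting cells already hold. Its mouse signal was 3870, 4899 and 4374 in injured cortex at 4 h and 3201, 8192 and 7120 at 8 h. It was 9184, 12778 and 4914 at 24 h and 13940, 14989 and 12841 at 72 h. Sham signals were 2499 and 3216 at 4 h, 6252 and 7611 at 8 h, 9642 and 3831 at 24 h, and 12416 and 7331 at 72 h. All 5 injured and sham arrays of 4 h were below naive cortex, at 14319 and 15521, with the injured arrays above the sham ones. Between injury and sham the differences ranged between -0.27 ± 0.40 at 8 h and 0.62 ± 0.40 at 4 h (adjusted p = 0.771 and 0.718, limma), and the 4 h interval was -0.21 to 1.45.

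Atf3 was called at all 4 times in mouse. Its signal was 3067, 1443 and 1361 in injured cortex at 4 h, against 731 and 626 in sham cortex. At 8 h it was 1528, 1169 and 1068 in injured cortex, against 268 and 248 in sham. At 24 h it was 1242, 1048 and 1628 against 257 and 297, and at 72 h it was 984, 1159 and 901 against 345 and 231. The lowest injured array of any time, at 901, was above the highest sham array of any time, at 731. Atf3 rose by 1.43 ± 0.28 at 4 h (adjusted p = 0.0151, limma), 2.27 ± 0.28 at 8 h (adjusted p = 3.3e-05), 2.22 ± 0.28 at 24 h (adjusted p = 3.09e-05) and 1.84 ± 0.28 at 72 h (adjusted p = 0.000152). Its other probe set that passed gave 1.35 ± 0.54 at 4 h (adjusted p = 0.431) and 1.20 ± 0.54 at 8 h (adjusted p = 0.208), and 2.71 ± 0.54 at 24 h (adjusted p = 0.00307) and 2.22 ± 0.54 at 72 h (adjusted p = 0.01). The 4 h call ended without injury replicate 1 (1.05, adjusted p = 0.0693), sham 1b (1.54, 0.0743) or sham 1c (1.32, 0.289), with a mean of probe sets (1.39, 0.099), in a fit of the compared groups only (0.107) and with averaged sham arrays (0.208).

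**Figure D2:**
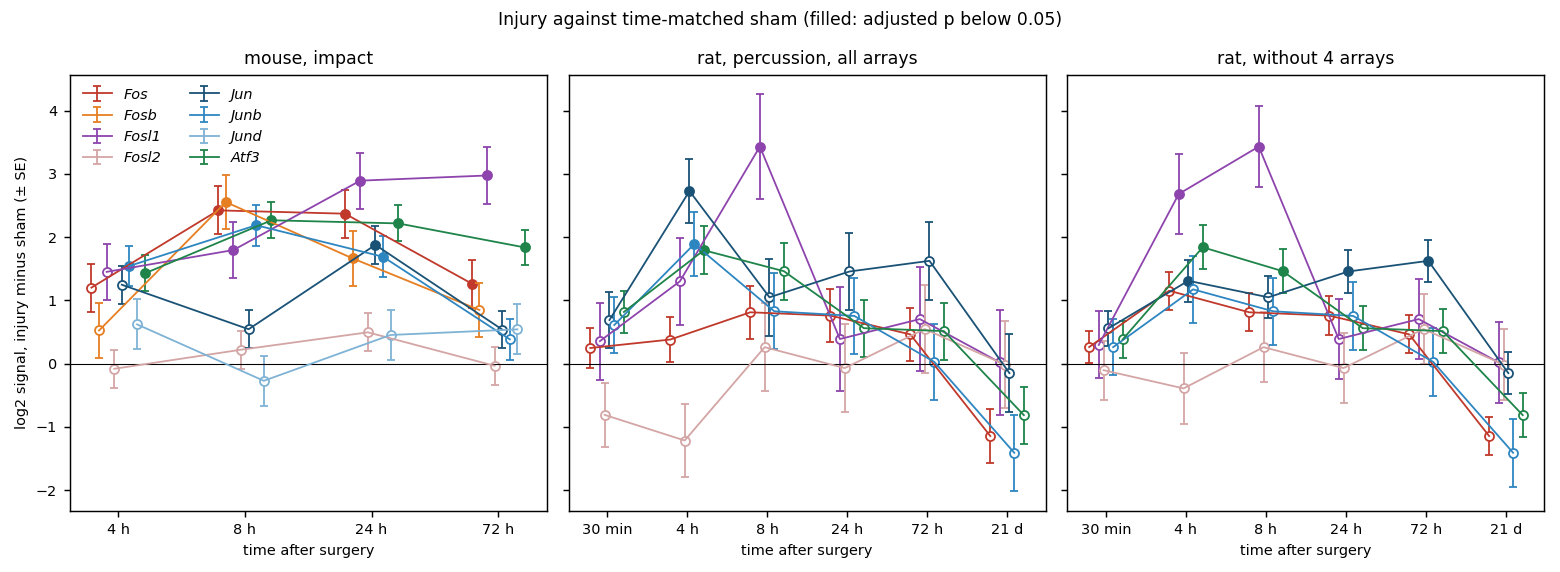
Log2 difference of injury minus time-matched sham (± SE) for each gene over time in mouse, in all rat arrays and in rat without the 4 arrays that stood apart, with filled points where the adjusted p was below 0.05. Mouse Atf3 is filled at all 4 times, Fosl1 is at 2.98 in mouse at 72 h and 3.43 in rat at 8 h, values that are 1.35 and 2.36 with the floor at the 25th percentile.

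Sham surgery itself was set against naive cortex because the mouse 4 h sham arrays were bright in Fos and Fosb. Fosb rose in sham cortex at 4 h by 2.50 ± 0.47 (adjusted p = 0.0119, limma) and Jund fell by 2.39 ± 0.43 (adjusted p = 0.00922), 2 of 8 genes against 0.551% of all genes called in either direction. Each of these calls ended when any 1 of the 4 arrays was left out, with adjusted p between 0.0944 and 0.124 for Fosb and between 0.0585 and 0.107 for Jund, while the differences kept to 2.46 to 2.53 and -2.58 to -2.21. Atf3 (1.26 ± 0.31, adjusted p = 0.0943) and Fosl1 (1.79 ± 0.49, adjusted p = 0.129) had differences of the same sign in sham cortex as in injured cortex without a call. No member was called in sham cortex at 8, 24 or 72 h, with 0, 0.0472 and 0.0157% of all genes called and 4, 4 and 0 members at an unadjusted p below 0.05 (limma). With the 4 sham groups averaged and set against naive cortex, 0 members were called, 4 had an unadjusted p below 0.05 and 0.11% of all genes were called.

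The same 2 sham arrays at 4 h held pituitary transcripts. Of 5 pituitary markers tested (Prl, Pomc, Cga, Lhb and Gh), 4 rose and 1 fell against naive, and their summed signal was 18210 and 20462, against 2034 and 2582 in naive cortex and 1640 to 2577 in the other mouse injury and sham arrays. The part of this tissue in the Fosb and Jund levels was not tested.

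Against naive cortex, injured mouse cortex had 5 members that rose and 1 that fell at 4 h (7.1% of all genes called in either direction), 4 that rose and 1 that fell at 8 h (5.37%), 6 that rose at 24 h (10.7%) and 2 that rose at 72 h (12.8%). These comparisons share the injury arrays with those against sham. Fosl1 and Atf3 were called at every time, Fosl1 by 3.25 ± 0.44, 3.31 ± 0.44, 3.07 ± 0.44 and 2.76 ± 0.44 and Atf3 by 2.69 ± 0.28, 2.13 ± 0.28, 2.18 ± 0.28 and 1.84 ± 0.28 at 4, 8, 24 and 72 h (adjusted p at most 0.000239, limma). Naive Fosl1 signals (29.9 and 29.3) are close to the floor of 24.1, so these Fosl1 sizes depend on the floor. No other floor was tried for them. Fosb rose by 3.02 ± 0.43 at 4 h (adjusted p = 0.000183), 2.33 ± 0.43 at 8 h (adjusted p = 0.0026) and 1.57 ± 0.43 at 24 h (adjusted p = 0.0244). Jund fell by 1.77 ± 0.40 at 4 h (adjusted p = 0.00845) and 1.38 ± 0.40 at 8 h (adjusted p = 0.047), and at 72 h the difference was -0.10 ± 0.40 (adjusted p = 0.907). Fosl2 rose at 24 h (1.24 ± 0.30, adjusted p = 0.0115), a call it did not have against sham. Fos rose by 2.20 ± 0.38 at 4 h (adjusted p = 0.0011), 1.55 ± 0.38 at 8 h (adjusted p = 0.0196) and 1.31 ± 0.38 at 24 h (adjusted p = 0.0327).

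Several of these calls against naive rested on single arrays. Fos lost its 8 h call without either naive array or injury replicate 1 (adjusted p = 0.0907 to 0.176), and its 24 h call without either naive array or injury replicate 1 or 3 (0.0719 to 0.211). Fosb lost its 24 h call without either naive array or injury replicate 3 (0.12 to 0.143). Jund lost the 4 h call without either naive array (adjusted p = 0.0618 and 0.0877) and the 8 h call without either naive array or injury replicate 1 or 3 (adjusted p = 0.0519 to 0.265). Fosl2 lost its call without naive replicate 2 (1.02, adjusted p = 0.147) or injury replicate 3 (1.07, 0.0571). Junb rose at 4 h (1.36 ± 0.32, adjusted p = 0.0131, limma), a call lost without injury replicate 1 (0.0587) or naive replicate 2 (0.202). At 8 h (0.84 ± 0.32, adjusted p = 0.146) and 24 h (0.35 ± 0.32, adjusted p = 0.536) it had no call against naive.

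**Figure D3:**
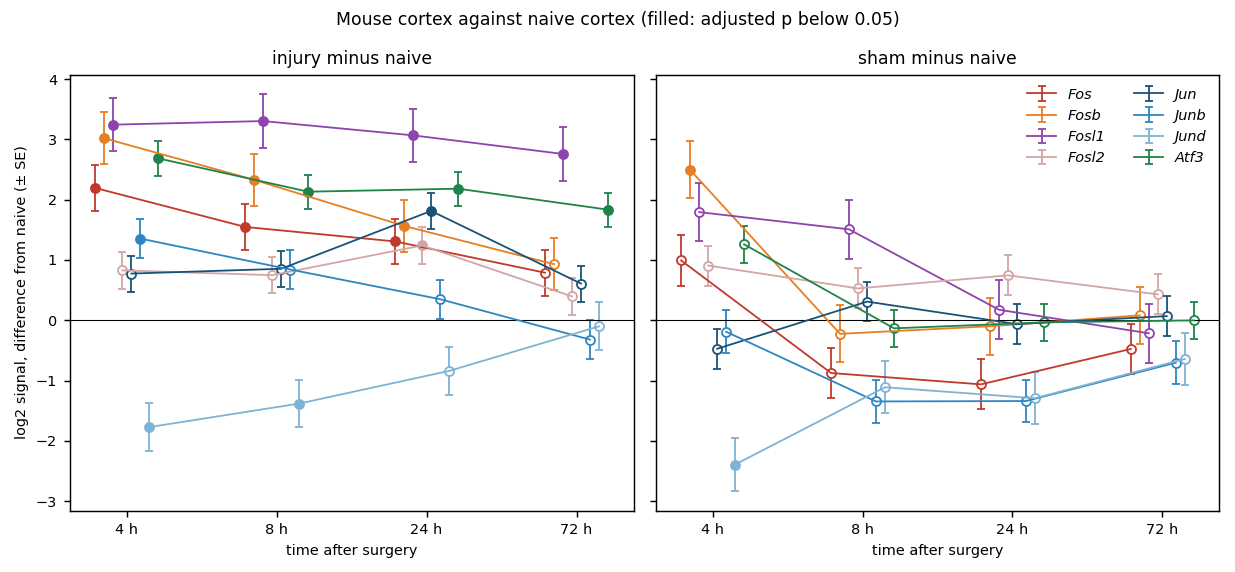
Log2 difference from naive mouse cortex (± SE) for injured cortex and for sham cortex over time, with filled points where the adjusted p was below 0.05. Jund lies below 0 in both groups at 4 h (-1.77 in injured and -2.39 in sham cortex), and Fosb lies above 0 in both (3.02 and 2.50).

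Tests of how the injury effect differed between times called no member in mouse. For 8 h against 4 h, 2 of 8 members had an unadjusted p below 0.05 and 0.614% of all genes were called. The corresponding figures were 1 and 0.0472% for 24 h against 8 h, 2 and 0.283% for 72 h against 24 h, and 2 and 5.22% for 72 h against 4 h (limma). The lowest adjusted p of a member over these comparisons was 0.147, so the different times at which single genes were called are not shown to be different time courses.

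In rat cortex after fluid percussion, 4 of the 6 genes tested rose against time-matched sham: Jun, Junb and Atf3 at 4 h and Fosl1 at 8 h. Among all genes, 2.93% rose at 4 h and 0.611% at 8 h. No member was called at 30 min, 24 h, 72 h or 21 d, where 0.0244%, 0.269%, 2.1% and 0% of all genes rose and 1, 1, 1 and 2 members had an unadjusted p below 0.05 (limma). Without the 4 arrays that stood apart, Fosl1, Jun and Atf3 rose at 4 h (0.904% of all genes rose), Fosl1 and Atf3 at 8 h (1.44%), Jun at 24 h (0.733%) and Jun at 72 h (5.3%). At 30 min and 21 d 0 members were called in that fit, with 0% of all genes rising and 0 and 3 members at an unadjusted p below 0.05. The 4 arrays are all of 30 min and 4 h. At 8, 24 and 72 h the differences from sham are therefore unchanged in that fit, and only their errors differ.

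**Figure D4:**
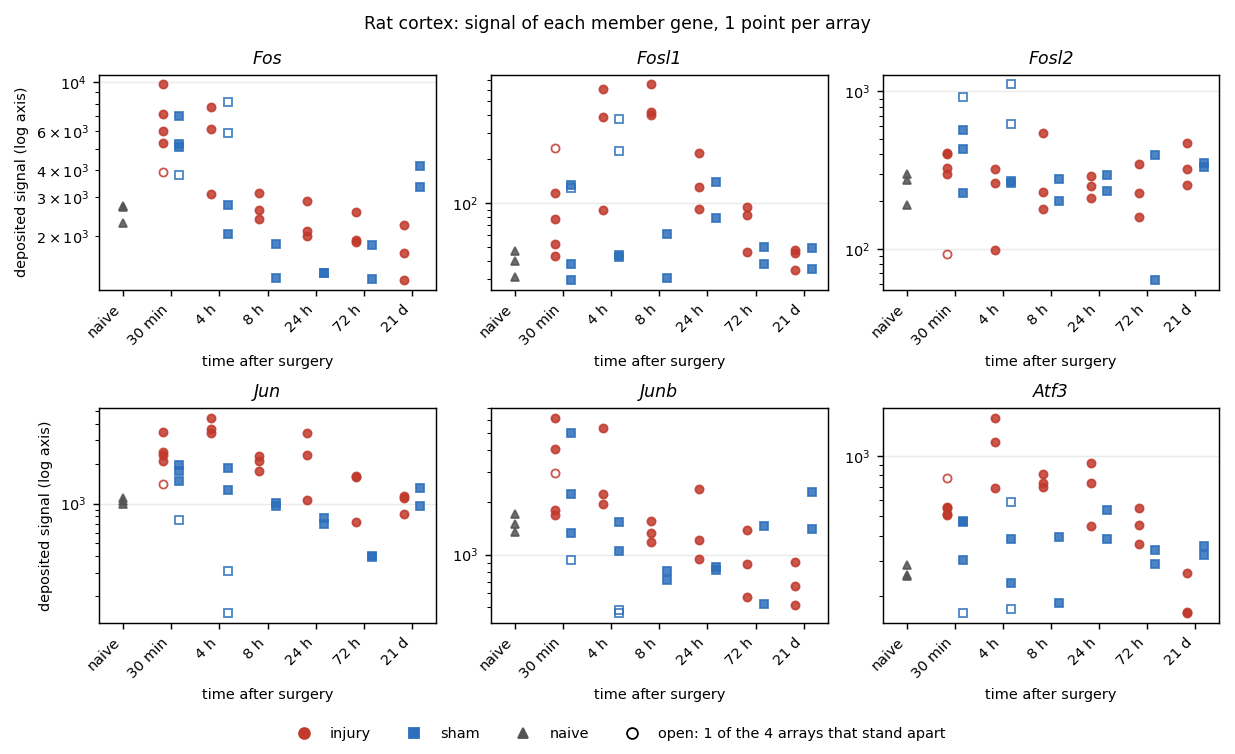
Deposited signal (log axis) of the 6 tested genes in each rat array, with naive arrays at the left, injury (circles) beside sham (squares) at each time, and open symbols for the 4 arrays that stood apart. The open sham symbols at 4 h are above the filled ones for Fos, Fosl1 and Fosl2 and below them for Jun and Junb.

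Rat Fos was high in both surgical groups at 30 min. Its signal was 7185, 5994, 5296, 9784 and 3900 in injured cortex, against 5258, 5075, 3799 and 7046 in sham cortex, and naive cortex had 2726, 2752 and 2285. For this probe set, the brightest of 3, all surgical arrays at 30 min were above all naive arrays, and injury and sham overlapped. In both other Fos probe sets, injury replicate 5 and sham replicate 3, which stood apart, were below all naive arrays: they read 1046 and 881 against 1378 to 1568 in naive cortex, and 445 and 369 against 497 to 692. The difference of injury and sham was 0.25 ± 0.31, with an interval of -0.38 to 0.88 (adjusted p = 1, limma). Against naive, injury at 30 min had 3 of 6 members at an unadjusted p below 0.05 and 0 called over all arrays, with 0.0978% of all genes called. Without the 4 arrays, Fos (1.41 ± 0.25, adjusted p = 0.00381) and Jun (1.28 ± 0.28, adjusted p = 0.0395) rose in injured cortex at 30 min against naive, where 0.196% of all genes were called. Sham cortex at 30 min also lay above naive in that fit, without a call, for Fos (1.15 ± 0.27, adjusted p = 0.0723) and Jun (0.72 ± 0.30, adjusted p = 0.401). Injury and sham there differed by 0.26 ± 0.25 for Fos and 0.56 ± 0.28 for Jun, and neither was called.

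At 4 h rat Fos was 6122, 3107 and 7748 in injured cortex, against 2038, 2767, 8119 and 5910 in sham cortex. The 2 bright sham arrays were replicates 3 and 4, which stood apart, and the difference was 0.38 ± 0.35 (adjusted p = 0.468, limma). The 2 other Fos probe sets were not bright in those arrays: one read 1766, 887 and 1740 in injured cortex and 190, 662, 402 and 370 in sham, with a difference of 1.92 ± 0.62 (adjusted p = 0.0557). The other gave 1.61 ± 0.52 (adjusted p = 0.0552). For the brightest probe set the fit without the 4 arrays gave 1.15 ± 0.30 (adjusted p = 0.0587). At 21 d Fos was 2251, 1678 and 1268 in injured cortex, below sham at 4157 and 3339, a difference of -1.14 ± 0.42 that was not called (adjusted p = 1).

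Rat Fosl1 had its call at 8 h. Its signal was 651, 400 and 419 in injured cortex, against 61.0 and 30.7 in sham cortex and 31.1 to 46.8 in the 3 naive arrays. Every injured array at 8 h was above every other rat array except 1 of the injured arrays at 4 h. Fosl1 rose by 3.43 ± 0.83 (adjusted p = 0.0392, limma), or 2.36 with the floor at the 25th percentile (adjusted p = 0.0291). Leaving out any 1 of the 5 arrays ended the call, with differences of 2.97 to 3.90 and adjusted p of 0.0809 to 0.717. The 4 arrays hold none of 8 h, and without them the difference was the same with a smaller error (3.43 ± 0.63, adjusted p = 0.00174). At 4 h signals were 391, 609 and 90.1 in injured cortex and 43.8, 42.7, 228 and 378 in sham, and the difference was 1.30 ± 0.69 (adjusted p = 0.201) over all arrays and 2.68 ± 0.63 (adjusted p = 0.0292) without the 4 arrays.

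Rat Fosl2 was not called at any time. Its signal at 4 h was 263, 98.1 and 321 in injured cortex, against 268, 262, 624 and 1109 in sham cortex, where the 2 bright values were again replicates 3 and 4. The difference was -1.22 ± 0.58 (adjusted p = 0.159, limma) and -0.39 ± 0.56 (adjusted p = 0.908) without the 4 arrays. Its second probe set differed by 0.37 ± 0.53 (adjusted p = 0.645).

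Rat Jun was bright in injured cortex at 4 h. Its signal was 4440, 3621 and 3424 in injured cortex, against 1270, 1852, 309 and 148 in sham cortex. The injured arrays were above every sham and naive array of the rat series, and sham replicates 3 and 4 were the dimmest of all rat arrays in this gene. Jun rose by 2.73 ± 0.51 (adjusted p = 0.00234, limma), and by 1.31 ± 0.33 without the 4 arrays (adjusted p = 0.0447). The 4 Jun probe sets differed at 4 h: the one above gave 2.73, 2 others gave 1.59 ± 0.77 (adjusted p = 0.161) and 1.10 ± 0.37 (adjusted p = 0.0642), and the last gave -0.95 ± 0.51 (adjusted p = 0.199), with 1131 and 1140 in sham replicates 3 and 4. The mean of the 4 probe sets gave 1.12 (adjusted p = 0.0595).

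Later rat Jun signals were 2328, 1055 and 3403 in injured cortex at 24 h, against 704 and 776 in sham cortex. At 72 h they were 724, 1584 and 1617 in injured cortex and 402 and 394 in sham. Injury and sham did not overlap at either time, but at 72 h sham was also below naive cortex (996, 1095 and 1045). The differences were 1.46 ± 0.61 at 24 h (adjusted p = 0.868, limma) and 1.63 ± 0.61 at 72 h (adjusted p = 0.171) over all arrays, and were called without the 4 arrays (1.46 ± 0.33, adjusted p = 0.0239, and 1.63 ± 0.33, adjusted p = 0.00222). In that fit sham fell below naive at 72 h for Jun (-1.39 ± 0.33, adjusted p = 0.0344, 1.1% of all genes called) and at 24 h for Fos (-0.92 ± 0.30, adjusted p = 0.034, 17.7% of all genes called).

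Rat Junb at 4 h was 2227, 1954 and 5410 in injured cortex, against 1045, 1542, 480 and 460 in sham cortex. Injured arrays lay above all sham arrays, of which replicates 3 and 4 were dimmest. Junb rose by 1.89 ± 0.50 (adjusted p = 0.0356, limma), and the difference was 1.17 ± 0.53 (adjusted p = 0.436) without the 4 arrays. Leaving out sham replicate 3 (1.66, adjusted p = 0.11), sham replicate 4 (1.64, 0.166), injury replicate 1 (2.07, 0.065), 2 (2.17, 0.0853) or 3 (1.43, 0.134) also ended the call. At 30 min Junb was 1702, 1798, 4052, 6156 and 2948 in injured cortex and 2248, 1329, 932 and 5027 in sham, with 1722, 1502 and 1353 in naive cortex. At 21 d it was 910, 512 and 659 in injured cortex, below sham at 1406 and 2287, without a call (-1.41 ± 0.60, adjusted p = 1).

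Rat Atf3 at 4 h was 1545, 1167 and 691 in injured cortex, against 233, 387, 590 and 174 in sham cortex. At 8 h it was 808, 697 and 735 in injured cortex, against 395 and 185 in sham, and naive cortex had 288, 255 and 252. Injured arrays were above sham and naive arrays at both times. Atf3 rose by 1.79 ± 0.38 at 4 h (adjusted p = 0.00734, limma), a value that was 1.84 ± 0.35 without the 4 arrays (adjusted p = 0.00339). The 4 h call ended without injury replicate 1 (1.53, adjusted p = 0.0649) or 2 (1.74, 0.0622). The 8 h difference of 1.46 ± 0.45 was not called over all arrays (adjusted p = 0.175) and was called without the 4 arrays (adjusted p = 0.0206). At 30 min signals of 510, 552, 512, 557 and 774 in injured cortex lay above 476, 305, 166 and 466 in sham, with 0.82 ± 0.33 (adjusted p = 1). At 21 d injured cortex had 261, 168 and 165, below sham at 323 and 358 (-0.81 ± 0.45, adjusted p = 1).

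Against naive rat cortex, Atf3 rose in injured cortex at 4 h (2.02 ± 0.40, adjusted p = 0.0034, limma; 0.733% of all genes called), 8 h (1.49 ± 0.40, adjusted p = 0.0421; 1.93%) and 24 h (1.34 ± 0.40, adjusted p = 0.0248; 13.9%). The 4 h call ended without injury replicate 1 (1.76, adjusted p = 0.0713), the 8 h call without any 1 of its 6 arrays and the 24 h call without 5 of them in turn (adjusted p = 0.0519 to 0.173). Fosl1 at 4 h (2.83 ± 0.74) had no call over all arrays (adjusted p = 0.0712) and had one without injury replicate 3 (3.64, adjusted p = 0.00637). Fosl1 rose at 8 h (3.61 ± 0.74, adjusted p = 0.00364), with naive Fosl1 signals near the floor of 32.1. At 72 h and 21 d 0 members were called, with 0 and 1 at an unadjusted p below 0.05, beside 5.4% and 0% of all genes called. In the fit without the 4 arrays, 4 members rose against naive at 4 h (Fos, Fosl1, Jun and Atf3; 1.27% of all genes called), 2 at 8 h (Fosl1 and Atf3; 5.52%), 3 at 24 h (Fosl1, Jun and Atf3; 31.1%), and 0 at 72 h and 21 d (16.7% and 0%, with 1 and 2 members at an unadjusted p below 0.05). In that fit, sham cortex at 24 h also lay above naive, without a call, for Fosl1 (1.42 ± 0.63) and Atf3 (0.78 ± 0.35). For Jun it lay below naive (-0.50 ± 0.33). Injury and sham at 24 h overlapped for Fosl1 (0.39 ± 0.63) and Atf3 (0.56 ± 0.35), and neither was called against sham. Sham cortex at 24 h had 17.7% of all genes called against naive in that fit. The part of the high median signals of the 24 h arrays in these differences from naive was not tested.

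Sham rat cortex against naive called 0 members at any time over all arrays. From 30 min to 21 d, 0.0244%, 0%, 0%, 5.5%, 0% and 0% of all genes were called, with 1, 1, 0, 1, 1 and 0 members at an unadjusted p below 0.05. With one array left out, sham at 4 h had calls: Fosl1 without replicate 1 (1.98, adjusted p = 0.0444) or 2 (1.99, 0.0409), Fos without replicate 1 (0.98, 0.0394) and Jun without replicate 2 (-1.43, 0.0317). With the rat sham groups averaged, 0.0244% of all genes and 0 members were called, and 0 members had an unadjusted p below 0.05 (limma).

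**Figure D5:**
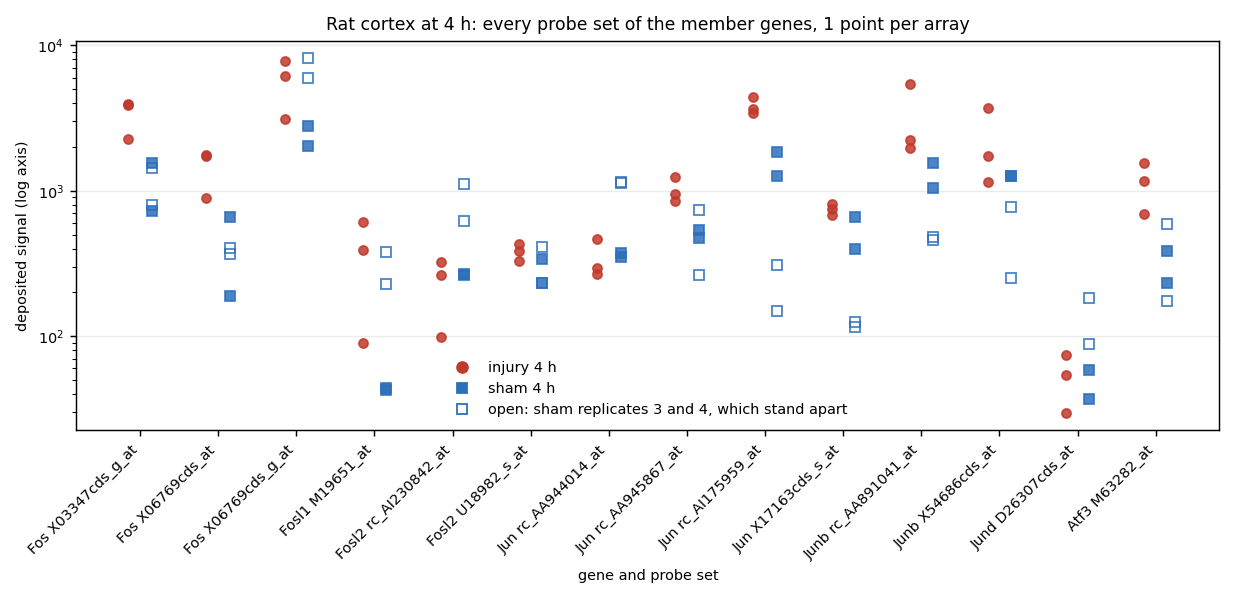
Deposited signal (log axis) of each rat probe set of these genes at 4 h in injured (circles) and sham (squares) cortex, with sham replicates 3 and 4 as open squares. Both open squares are the highest sham values for 1 of 3 Fos and 1 of 4 Jun probe sets, and the lowest sham values for the 2 Jun probe sets whose sham values reach 148 and 115.

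Differences of the rat injury effect between times called no member over all arrays. For 4 h against 30 min and 24 h against 4 h, 1 and 1 of 6 members had an unadjusted p below 0.05 and 0% of all genes were called in both. For 21 d against 4 h, 4 of 6 had an unadjusted p below 0.05, the lowest adjusted p was 0.065 (Atf3, limma) and 0.0489% of all genes were called. Without the 4 arrays, the effect at 21 d was lower than at 4 h for Fos (-2.30 ± 0.43) and Atf3 (-2.66 ± 0.49), each with adjusted p = 0.00709, where 0.269% of all genes were called.

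Promoters of 5 of the 8 genes were at hand, from 250 bases before to 50 after the start in the rat genome (RefSeq, GRCr8): Fosb, Fosl1, Fosl2, Junb and Jund. Those of Fosl1 and Junb are shown because both genes rose in rat and mouse, and that of Jund, which fell below naive in mouse at 4 h, because it alone of the 5 holds a full cyclic AMP response element (CRE, TGACGTCA), the site of CREB. In lower case sequences, capitals mark every CRE and every copy of its core TGACG on either strand, which overlap in the CRE. Fosl1 lies at chr1:212183635-212183934 (+ strand), Junb at chr19:40080876-40081175 (+) and Jund at chr16:18769722-18770021 (−).
Fosl1: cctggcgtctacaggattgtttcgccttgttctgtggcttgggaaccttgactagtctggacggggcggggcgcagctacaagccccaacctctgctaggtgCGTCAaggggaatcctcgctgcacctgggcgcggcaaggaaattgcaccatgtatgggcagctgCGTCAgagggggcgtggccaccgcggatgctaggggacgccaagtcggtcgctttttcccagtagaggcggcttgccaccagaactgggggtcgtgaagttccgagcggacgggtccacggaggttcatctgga
Junb: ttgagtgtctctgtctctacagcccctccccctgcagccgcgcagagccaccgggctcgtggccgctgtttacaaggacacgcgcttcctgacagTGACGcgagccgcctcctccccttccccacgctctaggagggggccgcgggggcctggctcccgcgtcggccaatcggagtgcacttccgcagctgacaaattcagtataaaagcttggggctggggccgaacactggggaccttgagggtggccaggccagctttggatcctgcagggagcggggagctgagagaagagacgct
Jund: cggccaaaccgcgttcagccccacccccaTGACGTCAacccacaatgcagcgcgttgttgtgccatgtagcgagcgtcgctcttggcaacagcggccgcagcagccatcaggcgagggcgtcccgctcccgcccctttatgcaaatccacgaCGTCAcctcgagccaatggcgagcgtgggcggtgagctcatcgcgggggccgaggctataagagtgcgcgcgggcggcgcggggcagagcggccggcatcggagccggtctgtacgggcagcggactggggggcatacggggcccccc
The core occurred 2 times in Fosl1, 1 time in Junb, 3 times in Jund and not in Fosb or Fosl2, and 21.2% of 33469 rat promoters of 300 bases hold it. The CRE was in 1.83% of them. The AP-1 site (TGANTCA) and the CArG box, the site of SRF, were found in none of the 5 windows, and 7.33% and 1.64% of all promoters hold them. A match is a description of letters, and no match says only that they are not in this window.

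A list of 27 genes held other leucine zipper factors and Crebbp, which encodes a coactivator without a leucine zipper. Of these, 20 mouse and 11 rat genes were tested. In mouse 2 rose at 4 h, 4 at 8 h, 9 at 24 h and 4 at 72 h. The 1 that fell, at 72 h, was Crebbp (-0.80 ± 0.23, adjusted p = 0.0247, limma). Among all genes 5.68% fell at 72 h, and 0.677%, 4.91%, 6.2% and 9.85% rose at 4, 8, 24 and 72 h. The list's median difference was 0.40, 0.45, 0.72 and 0.21 at these times, beside medians of 0.00, -0.03, -0.04 and -0.01 over all genes. Cebpd, a C/EBP factor of the acute phase response, rose by 1.95 ± 0.18 at 4 h (adjusted p = 7.12e-06, limma) and 3.19 ± 0.18 at 8 h (adjusted p = 1.24e-09). Cebpb, its relative, rose by 1.33 ± 0.21 at 4 h and 1.79 ± 0.21 at 8 h (adjusted p = 0.00198 and 1.87e-05). Nfe2l2, the master regulator of antioxidant genes, rose at 72 h (1.28 ± 0.21, adjusted p = 0.00032). In rat Cebpb (2.05 ± 0.44, adjusted p = 0.00986) and the stress factor Ddit3 (1.47 ± 0.43, adjusted p = 0.0456) rose at 4 h, when 2.93% of all rat genes rose. Without the 4 arrays 1 of 11 rose at 4 h, 2 at 8 h and 1 at 24 h, beside 0.904%, 1.44% and 0.733% of all rat genes.

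Of 16 kinases, phosphatases and factors upstream of Fos and Jun tested in mouse, 1 rose and 1 fell at 4 h. At 8 h 1 fell, at 24 h 1 rose and 1 fell, and at 72 h 2 fell. Among all genes 0.677%, 4.91%, 6.2% and 9.85% rose and 0.189%, 3.27%, 4.5% and 5.68% fell at 4, 8, 24 and 72 h. Dusp1, a phosphatase that switches off MAP kinases and is itself an immediate early gene, rose at 4 h in mouse (1.60 ± 0.28, adjusted p = 0.00482, limma) and rat (2.66 ± 0.56, adjusted p = 0.00774), where it was the 1 of 12 called. In the fit without the 4 arrays 0 of 12 rose at 4 h in rat. Of all rat genes 2.93% rose at 4 h over all arrays and 0.904% without the 4 arrays. Mapk10, which encodes the neuronal kinase JNK3, fell at 4 h in mouse (-0.75 ± 0.17, adjusted p = 0.0306). Map3k12, which encodes the axon injury kinase DLK, fell at 8 h (-1.87 ± 0.51, adjusted p = 0.0255) and 72 h (-2.18 ± 0.51, adjusted p = 0.00599).

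Genes that textbooks list as AP-1 targets rose in larger numbers: of 19 tested in mouse, 3 at 4 h, 8 at 8 h, 13 at 24 h and 12 at 72 h, and none fell. Their median difference was 0.38, 1.02, 1.41 and 0.92 at these times, when 0.677%, 4.91%, 6.2% and 9.85% of all genes rose. Ccl2, a chemokine for monocytes, rose by 2.37 ± 0.38 at 4 h and 5.64 ± 0.38 at 8 h (adjusted p = 0.00199 and 1.71e-08, limma). Plaur, the urokinase receptor, rose at 4 h (3.22 ± 0.36, adjusted p = 3.52e-05), and Timp1, an inhibitor of matrix proteases, at 8 h (2.92 ± 0.25, adjusted p = 3.88e-07). Hmox1, haem oxygenase, rose by 2.81 ± 0.21 at 72 h (adjusted p = 1.67e-08). In rat, of 20 tested, 6 rose at 4 h, 5 at 8 h, 4 at 24 h and 8 at 72 h and 0 at 30 min and 21 d. Of all rat genes, 2.93%, 0.611%, 0.269% and 2.1% rose at 4, 8, 24 and 72 h. Without the 4 arrays 6, 7, 5 and 8 rose at these times, beside 0.904%, 1.44%, 0.733% and 5.3% of all genes. In that fit 1 fell, at 4 h, when 44 of 4091 genes were called and 37 of those rose. The secreted phosphoprotein gene Spp1 had the largest of these rat rises, 6.94 ± 0.66 at 72 h (adjusted p = 2.4e-08). Many genes of this list are also expressed by leukocytes and glia, and the part of AP-1 in these rises was not tested.

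A list of genes known from injured neurons that express Atf3 and Jun had 16 tested members in each species. In mouse 0 were called at 4 h, 3 rose and 1 fell at 8 h, 5 rose and 2 fell at 24 h, and 5 rose at 72 h. Among all genes 4.91%, 6.2% and 9.85% rose and 3.27%, 4.5% and 5.68% fell at 8, 24 and 72 h. Sprr1a, a regeneration-associated gene of axotomised sensory neurons, rose by 2.64 ± 0.46 at 24 h (adjusted p = 0.000875, limma) and 3.02 ± 0.46 at 72 h (adjusted p = 0.000143). Npy, a neuropeptide of cortical interneurons, rose by 1.05 ± 0.15 and 1.36 ± 0.15 at these times (adjusted p = 0.000147 and 5.06e-06). Gap43, a growth cone protein, fell at 8 h (-0.87 ± 0.17, adjusted p = 0.0026). In rat Gadd45a rose at 4 h (1.11 ± 0.31, adjusted p = 0.0387), the neuropeptide Gal at 8 h (3.60 ± 0.81, adjusted p = 0.0249) and 72 h (2.86 ± 0.81, adjusted p = 0.0472), and the heat shock gene Hspb1 at 72 h (1.42 ± 0.38, adjusted p = 0.0385). Of all rat genes tested, 2.93%, 0.611% and 2.1% rose at 4, 8 and 72 h. Without the 4 arrays, 0 rose at 4 h, 3 at 8 h, 1 at 24 h and 2 at 72 h, where 2 fell. In that fit 0.904%, 1.44%, 0.733% and 5.3% of all rat genes rose at these times. At 72 h 376 of 4091 genes were called and 217 of those rose.

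Markers of other cell types were also called in the same samples. Among all mouse genes 0.677%, 4.91%, 6.2% and 9.85% rose and 0.189%, 3.27%, 4.5% and 5.68% fell at 4, 8, 24 and 72 h. Among all rat genes 2.93%, 0.611%, 0.269% and 2.1% rose and 2.05%, 0.0978%, 0% and 0.66% fell at these times. In mouse 7 of 8 microglia and macrophage markers rose at 72 h, with a summed signal of 25294 to 31602 in injured cortex, against 6554 and 6657 in sham, while 0 of 8 rose at 4 h (7181 to 7561 against 7666 and 7895). Of 4 mouse neutrophil markers tested, 1 rose at 4 h, 2 at 8 h, 2 at 24 h and 1 at 72 h, and their sum at 8 h was 1561 to 2304 in injured cortex, against 695 and 914 in sham. In rat, 3 of 3 neutrophil markers rose at 4 h (sum 1033 to 2439 in injured cortex, against 188 to 466 in sham) and at 8 h (3625 to 8193 against 227 and 289), 2 of 3 at 24 h and 1 of 3 at 72 h. Rat red cell markers rose at 4 h, 3 of 3 (36757 to 53796 in injured cortex, against 4242 to 23032 in sham), and 1 of 3 at 8 h, and in mouse 2 of 3 rose at 4 h (14766 to 16584 against 8736 and 9191) and 2 of 3 at 8 h (16969 to 22496 against 10360 and 11022). Microglia markers also rose in mouse at 8 h (2 of 8) and 24 h (4 of 8) and in rat at 72 h (2 of 3). Oligodendrocyte markers rose in mouse at 8, 24 and 72 h (2 of 4 at each), with a sum of 18642 to 21080 in injured cortex at 8 h, against 13280 and 15047 in sham. Fibroblast markers rose in mouse at 24 h (2 of 5) and 72 h (4 of 5; 7964 to 9609 against 5044 and 6293), and 1 of 5 fell at 8 h. In rat 2 of 5 fibroblast markers fell at 4 h and 1 of 5 rose at 72 h, and 1 of 5 oligodendrocyte markers rose at 4 h. Astrocyte markers had 1 of 5 lower at 8 h, 1 higher and 1 lower at 24 h and 2 higher at 72 h in mouse, and endothelial markers 1, 1 and 2 of 6 higher at these times. The 6 neuronal markers tested had 0 calls at every mouse time, and in rat 1 fell, at 72 h (6653 to 15847 in injured cortex, against 26393 and 27333 in sham). All rat marker counts and sums are over all arrays, and the 4 h sham group includes replicates 3 and 4, which stood apart. The part of these cells in the levels of Fos, Jun and Atf3 was not tested.

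Genes outside the members whose group means followed them most closely were ranked by Pearson r over 9 mouse or 13 rat group means, as a description, since all means share the same arrays. The rat means include the 4 arrays that stood apart. For mouse Atf3 they were Ccl2 (0.985), Ccn1 (0.985), Ptgs2 (0.984), Slc7a5 (0.980) and Cebpd (0.978). For mouse Fos they were Klf10 (0.972), Gadd45b (0.966), Slc7a5 (0.966), Gpr3 (0.956) and Rgs16 (0.954). Fosb was nearest to Gjb2 (0.968), Pim3 (0.960) and Gadd45b (0.960), and Fosl1 to Adm (0.973), Snx4 (0.966) and Plaur (0.965). Junb was nearest to Egr2 (0.955), another immediate early gene, and Jun, with lower values, to Rnf19b (0.920) and Nras (0.920). In rat Fosl1 was nearest to Icam1 (0.948) and S100a9 (0.929), Atf3 to Il1b (0.913) and Icam1 (0.908), Junb to Dusp1 (0.863) and Dusp5 (0.817), and Jun to Ccl3 (0.839) and Ifrd1 (0.835).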

How the data were processed

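The authors deposited linear intensities, 1 value for each probe set on an array, already brought to a shared level. What software produced them is not given in the sources used here. Groups were read from the sample labels. Low values were raised to a floor (24.1 in mouse and 32.1 in rat, the 10th percentile over the species' arrays), and the deposited intensities were then put on the log2 scale. A probe set entered the tests if it had a single gene symbol and exceeded the 40th percentile, 193 (mouse) or 202 (rat), on 3 arrays or more. The probe set with the highest mean stood for its gene.

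All arrays of a species entered 1 linear model with a mean per group (limma 3.58.1 in R 4.3.3, eBayes with trend; the residual degrees of freedom were 13 for mouse and 26 for rat). Injury was contrasted with sham of its time; other contrasts were sham and injury against naive, and differences of injury effects between times. Benjamini-Hochberg adjustment ran over all genes tested in a contrast. The fitting code was first checked on simulated arrays. Figures used matplotlib 3.10.9 in Python 3.11.15.

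Members and gene lists were chosen with earlier results of these data known. The text names all members. From each list and contrast it took up to 3 called genes with the smallest adjusted p, and for each called member the 5 genes with the highest correlation of group means. Some of these are not printed. The rat fits without 4 arrays were among the alternatives listed in advance with those arrays known. The comparisons of injury with naive cortex and leaving out single arrays from them were chosen after seeing the data.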

Additional observations from a re-analysis of the deposited data

Results flagged for a closer look

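In rat injured cortex at 30 min, replicate 5, which is 1 of the 4 arrays that stood apart, was far from the other 4 arrays of its group in 2 genes. Its Fosl2 signal was 92.3, against 297 to 407 in the others, and its Atf3 signal was 774, against 510 to 557. Dixon's test at 95% was run on 18 sets of 4 or 5 arrays, and chance gives about 1 in 20 such results.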

How the results depend on the processing

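The number of members called moved by over 1.5 times as follows. For mouse at 4 h it was 2, and became 1 with no filter, 1 with probe sets averaged per gene, 6 against all uninjured arrays as 1 control, 6 against naive, 0 with sham arrays averaged, and 0 to 3 when single arrays were left out. For mouse sham against naive it was 0, and 1 (Jund, -1.53, adjusted p = 0.043) without sham 24 h 1c. For rat at 4 h it was 3, and became 0 with the compared groups only, 1 against naive, and 1 to 3 when single arrays were left out. For rat at 8 h it was 1, and became 2 against all uninjured arrays, against naive or without the 4 arrays, and 0 without any single array. For rat at 24 h it was 0, and became 1 in each of those 3 settings. For rat at 72 h it was 0, and 1 without the 4 arrays. The cause was not tested.

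No called member's difference against sham changed sign under the alternatives run. With the replicate block, 3 differences without a call changed sign: rat Fosl1 at 30 min (-0.0068, against 0.36), Junb at 72 h (-0.013, against 0.03) and Fosl1 at 21 d (-0.036, against 0.02). Called members kept their call in 130 mouse results under the other alternatives and lost it in 14, and with single mouse arrays left out they kept it in 64 and lost it in 16. In rat these counts were 32 kept and 8 lost, and 14 kept and 12 lost. Whether replicate numbers pair the rat samples could not be decided. At 30 min, same-number correlations of deviations from group means were 0.247, 0.358, -0.411 and 0.357, and different-number ones ran from -0.464 to 0.620. In groups with 2 sham arrays the 2 deviations mirror each other, so they cannot show a pairing. With the replicate block 3 members were called at 4 h and 1 at 8 h, as without it. Mouse sham numbers (1 with a letter) gave no pairing. A sham group left with 1 array takes its spread from the rest of the fit.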
